A study of Drosophila melanogaster with 4 samples.

Results

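Broad H2Av domains are the clusters wider than 10 kb in the authors' combined list of H2Av-enriched regions from heads of adult Drosophila melanogaster. They were chosen by their width in that list alone, taken from the first to the last base of a cluster, and 998 of the 7576 clusters met the criterion. The remaining 6578 clusters are called narrower clusters here. The study was a chromatin immunoprecipitation and sequencing (ChIP-seq) experiment on wild-type flies of the Oregon-R strain, at a stage given as mixed adult and raised in population cages with overlapping generations. It had 2 ChIP replicates made with the H2Av antibody numbered 9751 and 2 inputs, each input serving 1 ChIP replicate. All 4 libraries share strain, genotype, stage and tissue, so no treatment or mutant is compared. Since the labels only number the replicates and name no separate cages or collections, their spread may be technical.

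H2Av is a histone H2A variant that does in Drosophila the work of both H2A.Z and H2A.X of mammals. In its H2A.Z role it is placed in nucleosomes by chromatin remodellers, chiefly around the starts of active genes, and it is also known for a part in heterochromatin formation. In its H2A.X role it is phosphorylated around DNA breaks. The regions described here extend over many neighbouring nucleosomes.

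Each cluster has coordinates on FlyBase release 5 and a score from the authors whose scale is not stated, so scores serve only to rank and compare clusters. The combined list was made from the same libraries as the 2 replicate lists, and width in it chose the domains. All values below are therefore descriptions, and no test of domains against narrower clusters was made. How many reads stand behind each list is unknown, so no counting error can be given. A head contains many cell types, and strong H2Av in a fraction of the cells cannot be told apart from weaker H2Av in all of them. The lists hold no gene-level values with which to check the tissue, and the position of the domains relative to genes and their exons or introns was not analysed here.

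The domains were 13.2% of the clusters and held 17.4 Mb, or 45.6%, of the length of the combined list. Their median width was 15.0 kb, with quartiles of 11.9 kb and 20.1 kb, against a median of 2.42 kb for narrower clusters. Of the 998 domains, 499 were wider than 15 kb, 254 wider than 20 kb, 69 wider than 30 kb and 8 wider than 50 kb. The 69 domains over 30 kb alone accounted for 2.73 Mb. The 3 domains just above the threshold of 10 kb were 10001, 10019 and 10019 bp wide, with scores of 1.35, 1.07 and 1.26. The 3 clusters just below that threshold were 9995, 9993 and 9989 bp wide, with scores of 0.840, 0.764 and 1.03.

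The widest domain lay on chromosome arm 3R from 4068066 to 4171716, a width of 104 kb. It was called as 4 pieces covering 98.8% of it in replicate 1 and as 3 pieces covering 99.6% in replicate 2, with a score of 1.39. The second lay on 2R from 1332522 to 1431682, a width of 99.2 kb, and was covered to 95.2% by 6 pieces and to 98.9% by 5 pieces. Both replicates thus called nearly the whole of each, but neither as 1 unbroken cluster. The third was on chromosome 4 from 737850 to 799252 (61.4 kb). Replicate 1 called 99.0% of it as 1 cluster, while replicate 2 called 86.7% of it in 5 pieces.

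The other 7 of the 10 widest domains were between 47.8 kb and 58.8 kb. Of these 7, 2R held those from 7193460 to 7252280 and from 379236 to 437478. X held those from 2068254 to 2120756 and from 20053194 to 20102190. The rest were 3R from 5462076 to 5513020, 3L from 8128460 to 8176302 and the heterochromatic scaffold 3LHet from 679030 to 729702. The 3LHet domain was covered to 96.8% in replicate 1 and to 78.0% in replicate 2, the lowest of the 10 in replicate 2. In replicate 1 the lowest of the 10 was the 2R domain from 379236, at 90.6%. None of the 10 widest was called as 1 piece in both replicates. Their scores ran from 1.13 to 1.67, all below those of the 10 domains with the highest scores.

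In each replicate list taken singly, most domains were covered at nearly full length. All 998 were touched by at least 1 cluster of each replicate, whereas 50.4% of narrower clusters were touched by both, 31.3% by 1 and 18.3% by neither. Over the whole combined list 57.0% of clusters were touched by both. Of the clusters over 5 kb and up to 10 kb, however, 98.7% were touched by both, 1.31% by 1 and 0% by neither. Domains differ from narrower clusters in width and score together, and a wide region can be touched more easily than a narrow one. The narrowest cluster was 1001 bp in the combined list but 1301 bp in each replicate list. The part of width, or of this difference between the lists, in the contrast of domains and narrower clusters was not tested. The median share of a domain that was called reached 96.3% in replicate 1 and 93.0% in replicate 2, a mean of 94.7 ± 2.31% (SD, n = 2). The corresponding medians for narrower clusters were 81.6% and 66.8%, a mean of 74.2 ± 10.5% (SD, n = 2). For clusters over 5 kb and up to 10 kb, the class closest in width, they were 93.2% and 90.8%, a mean of 92.0 ± 1.70% (SD, n = 2). For the 2790 clusters over 1 kb and up to 2 kb, the median share was 0% in both replicates.

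By length, 85.0% of the sequence inside domains was called in both replicates and 1.69% in neither. In narrower clusters these shares were 53.4% and 13.6%, and in the clusters over 5 kb and up to 10 kb they were 73.7% and 4.01%. Coverage of at least 90% in both replicates was reached by 478 domains (47.9%), by 455 clusters of the class over 5 kb and up to 10 kb (37.4%), and by 19.6% of all clusters. Coverage below 50% was rare among domains, with 4 in replicate 1 and 10 in replicate 2. The extent to which a domain was covered differed between the lists, and the 2 shares had a Spearman rho of only 0.17 across domains.

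Uncalled sequence was concentrated at the ends of the domains. The 1.21 Mb of domain sequence not called in replicate 1 lay to 58.7% outside its outermost pieces, and the 1.71 Mb not called in replicate 2 to 54.8%. At the outermost positions of the domains 60.3% were called in replicate 1 and 53.4% in replicate 2, against 95.8% and 94.2% at their centres. The ends were called less still in clusters over 5 kb and up to 10 kb. There the shares were 41.0% and 39.6%, against 92.3% and 90.1% at the centre. The rest of the uncalled sequence of domains was in breaks between pieces. There were 666 such breaks in replicate 1, with a median of 423 bp, and 964 in replicate 2, with a median of 478.5 bp. The upper quartiles were 1066 bp and 1073 bp, and the longest breaks 6352 bp and 10503 bp. Most breaks were bridged by the other list: 26.4% of those in replicate 1 and 18.5% of those in replicate 2 met any base that the other replicate also left uncalled. Of all domain length, replicate 2 called 90.2% and replicate 1 called 93.1%. Whether breaks were bridged more or less often than other stretches of their length was not tested.

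**Figure D1:**
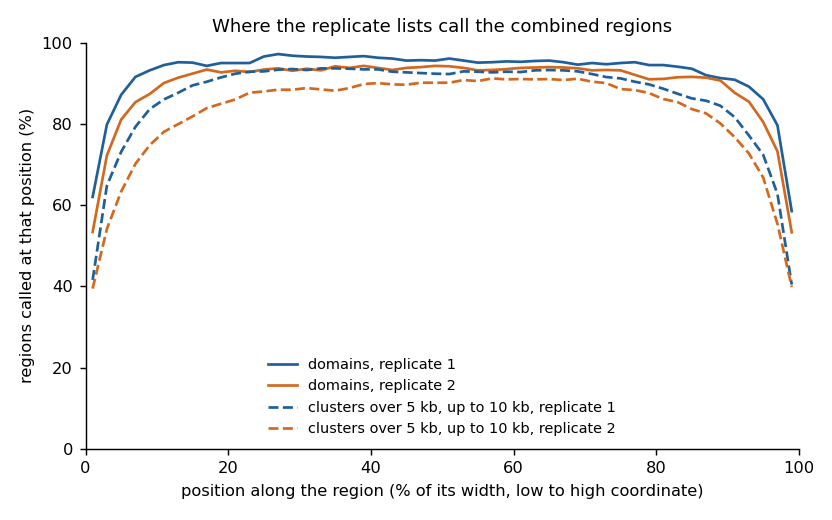
Share of regions called in each replicate list (vertical axis, %) at each position along the region (horizontal axis, % of its width), for the 998 domains (solid) and the 1217 clusters over 5 kb and up to 10 kb (dashed). Coverage is flat across the interior of the domains, at 95.8% in replicate 1 and 94.2% in replicate 2 at the centre, and falls at both ends. At the ends it is lower in the clusters over 5 kb and up to 10 kb than in domains.

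The outer edges of domains were placed with about the same precision as those of the next narrower class. Across the 1996 domain edges, the outermost calls of the 2 replicates differed by a median of 423 bp, with an upper quartile of 1169 bp, and 54.8% of edges were within 500 bp. For the 2402 edges of clusters over 5 kb and up to 10 kb that both replicates touched, the median was 437 bp, the upper quartile 1235 bp and the share within 500 bp 53.7%.

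Domains were often called in several pieces. In replicate 1, 540 domains (54.1%) met a single cluster, 311 met 2, 106 met 3 and 41 met 4 or more, up to 7. In replicate 2, 437 (43.8%) met a single cluster, 309 met 2, 151 met 3 and 101 met 4 or more, up to 8. The mean was 1.67 pieces in replicate 1 and 1.97 in the other, averaging 1.82 ± 0.211 (SD, n = 2), against 1.25 ± 0.00116 for clusters over 5 kb and up to 10 kb. Only 306 domains (30.7%) were 1 piece in each replicate, compared with 61.8% of the clusters over 5 kb and up to 10 kb and 39.6% of all clusters, and 327 domains were in several pieces in both. The share with 1 piece in each replicate was 36.1% at widths over 10 kb and up to 15 kb, 34.7% over 15 kb and up to 20 kb, 18.4% over 20 kb and up to 30 kb and 10.1% above 30 kb.

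Width over 10 kb in the combined list did not always mean a cluster of that width in the replicates. A replicate cluster over 10 kb lay in or across 703 domains in replicate 1 and 609 in replicate 2. It did so in both replicates for 496 domains (49.7%), in 1 replicate for 320 and in neither for 182 (18.2%). The 182 had a median width of 11.7 kb, and the widest of them was 25.2 kb. In the opposite direction, 734 of the 749 clusters over 10 kb in replicate 1 and 633 of the 650 in replicate 2 touched a domain.

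Domains in fewer pieces scored higher. The 306 domains with 1 piece in each replicate had a median score of 1.48, with quartiles of 1.30 and 1.69. The median was 1.26 for the 260 domains with 3 pieces in all, 1.20 for the 185 with 4, 1.08 for the 118 with 5 and 0.981 for the 66 with 6. It was 0.963 for the 63 domains with 7 or more, although these were the widest, with a median of 25.5 kb. Across the 998 domains, score had a Spearman rho of -0.59 with pieces per kb and of 0.62 with the mean covered share. Score, pieces and coverage all derive from the same libraries, and domains are not independent replicates.

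**Figure D2:**
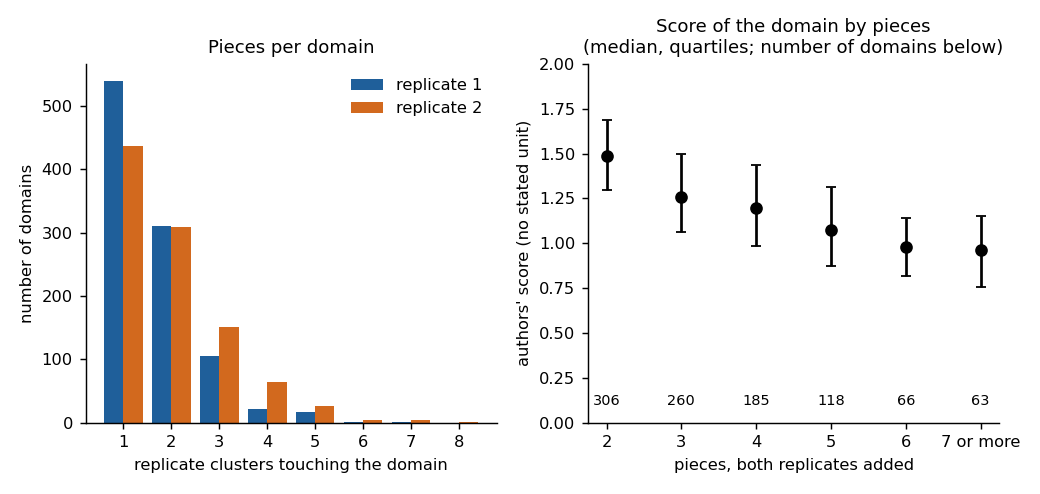
Left, number of domains (vertical axis) by the number of replicate clusters touching them (horizontal axis), for replicates 1 and 2. Right, the authors' score in the combined list (vertical axis, no stated unit) by the pieces of both replicates added (horizontal axis), as median and quartiles over domains, with the number of domains at the foot. The median score falls to 0.963 with 7 or more pieces, against 1.48 with 1 piece in each replicate.

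Among the 5 domains with most pieces, 4 scored below the median of all domains. The domain on 3L from 6123406 to 6157408 (34.0 kb) met 5 clusters in replicate 1 and 8 in replicate 2, was covered to 84.9% and 61.6%, and scored 0.697. On X from 15567608 to 15596144 (28.5 kb) there were 7 and 6 pieces over 87.5% and 85.6% of the length, with a score of 1.08. On 3L from 3282642 to 3304916 (22.3 kb) there were 5 and 7 pieces, covering 67.5% and 77.5%, and the score was 0.609. The other two of the 5 with most pieces were the 2R domains from 379236 and from 1332522, each with 6 and 5 pieces. The first of these was covered to 90.6% and 94.9% and had a score of 1.67, above the upper quartile of all domains, which was 1.52.

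The least covered domains were narrow and low in score. The lowest mean coverage was on 2L from 4360276 to 4370862 (10.6 kb), at 39.5% in replicate 1 and 61.0% in replicate 2, with a score of 0.471, the lowest of all domains. The next were 3L from 8379152 to 8390874 (74.6% and 39.5%) and 2L from 22586668 to 22598326 (24.8% and 90.4%). They were followed by 2L from 3311480 to 3323542 (19.2% and 97.0%) and by the X domain from 225234 to 235640 (91.4% and 25.8%). Either replicate could be the lower of the 2. The largest differences in coverage included the last 3 of these, together with 3R from 11731940 to 11742402 (98.4% and 31.5%) and 3L from 23570540 to 23584052 (99.3% and 36.5%).

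The score of domains was higher than that of narrower clusters, but among domains its correlation with width was weak. The median was 1.27 for domains, with quartiles of 1.01 and 1.52, and 0.599 for narrower clusters, with quartiles of 0.457 and 0.998. The difference of the medians was 0.671, and 0.188 among the 50% of clusters with the highest scores in each list. Only 8 domains scored below the median of narrower clusters. The median by width class was 0.465 for clusters over 1 kb and up to 2 kb, 0.698 up to 5 kb and 1.13 up to 10 kb. It was then 1.21 up to 15 kb, 1.32 up to 20 kb, 1.29 up to 30 kb and 1.40 above 30 kb. Spearman's rho between score and width was 0.14 across domains, with Pearson's r at 0.12. Across all narrower clusters the values were 0.57 and 0.53, and across clusters over 5 kb and up to 10 kb both were 0.09.

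**Figure D3:**
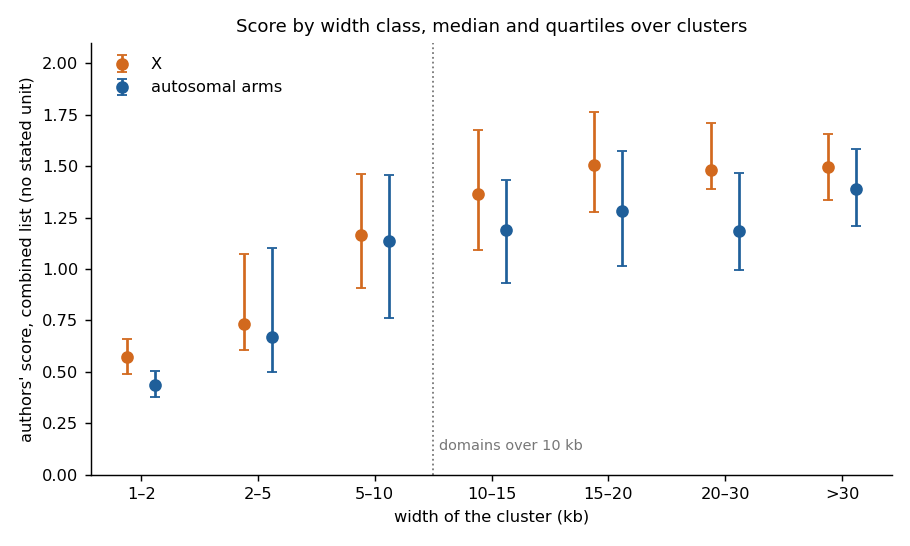
Authors' score in the combined list (vertical axis, no stated unit) by width of the cluster in kb (horizontal axis, unequal classes), on X and on the autosomal arms. Points are medians over clusters and bars run between the quartiles. Medians change more between the classes up to 10 kb than between those above, and the X median is above that of the autosomal arms in every class.

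High scores were frequent among domains and also occurred in narrower clusters. Of the domains 268 (26.9%) were in the upper 10% of the combined list by score, compared with 22.1% of the clusters over 5 kb and up to 10 kb, 7.45% of all narrower clusters and 10.0% of all clusters. Domains were 13.2% of the clusters and held 20 of the 100 highest scores. The highest domain score was 2.37, and the highest score of the list was 3.24, in a narrower cluster. The 10 domains with the highest scores were between 10.7 kb and 17.6 kb wide, and 8 of them were 1 piece in both replicates.

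The top score was on X from 2606448 to 2623084 (16.6 kb), with length-weighted scores of its pieces of 2.31 in replicate 1 and 2.59 in replicate 2. Next in score were X from 17742868 to 17756348, with a score of 2.27, and 3R from 18565106 to 18577786, with a score of 2.20. The remaining X domains among the 10 ran from 19552760 to 19570376 and from 11761364 to 11772074. The others were 3L from 23110124 to 23121716, 3LHet from 2229422 to 2245140, 2R from 3709224 to 3721036 and from 535880 to 547530, and 2L from 10202718 to 10213568. Each of the 10 was covered to at least 89.0% in either replicate.

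The replicate lists ranked the domains similarly by score. The length-weighted mean score of the pieces had a median of 1.32 in replicate 1 and 1.42 in the other, with a mean of 1.37 ± 0.0742 (SD, n = 2), against 0.938 and 1.00 for the narrower clusters that had pieces, or 0.970 ± 0.0455. Across the 998 domains Spearman's rho and Pearson's r between the 2 scores were both 0.71. Across the 3317 narrower clusters touched by both replicates, rho was 0.71 and r was 0.70. In clusters over 5 kb and up to 10 kb the median piece scores were 1.21 and 1.32. Across the 1201 of them touched by both replicates, rho was 0.73 and r was 0.72. The domains come from a list made from the same libraries, so this is a description of 2 libraries.

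Domains were spread over every chromosome arm, unevenly. There were 212 on 3R, 209 on 2R, 189 on 3L, 165 on X, 161 on 2L, 24 on chromosome 4, 34 on the heterochromatic scaffolds and 4 on the unplaced scaffold U. Chromosome 4, the small dot chromosome, had 17.8 domains per Mb, 2.22 times the 7.98 per Mb of the 4 autosomal arms. By length the ratio was 2.73, with 37.3% of chromosome 4 and 13.7% of the autosomal arms inside domains. Its narrower clusters were less in excess, at 1.29 times the number per Mb on the autosomal arms. On chromosome 4 domains made up 62.8% of the called length, against 46.0% on the autosomal arms. X had 7.36 domains per Mb and 13.4% of its length in domains, 0.922 and 0.980 times the values of the autosomal arms.

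Among the large arms 2R stood highest, with 9.88 domains per Mb over 18.3% of its length. The values were 7.70 per Mb and 12.1% on 3L, 7.60 per Mb and 13.0% on 3R, and 7.00 per Mb and 11.7% on 2L. The heterochromatic scaffolds together had 3.66 domains per Mb and 6.97% of their length in domains, 0.459 and 0.510 times the autosomal values, but differed among themselves. The short scaffolds XHet and 2LHet, with 3 and 5 domains, had 35.9% and 22.5% of their length in domains. The share was 8.61% on 3LHet, 5.30% on 2RHet and 3.83% on 3RHet, and YHet had no domain among its 8 clusters. Sequence gaps and repeats were not examined, and counts on the short scaffolds are small.

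**Figure D4:**
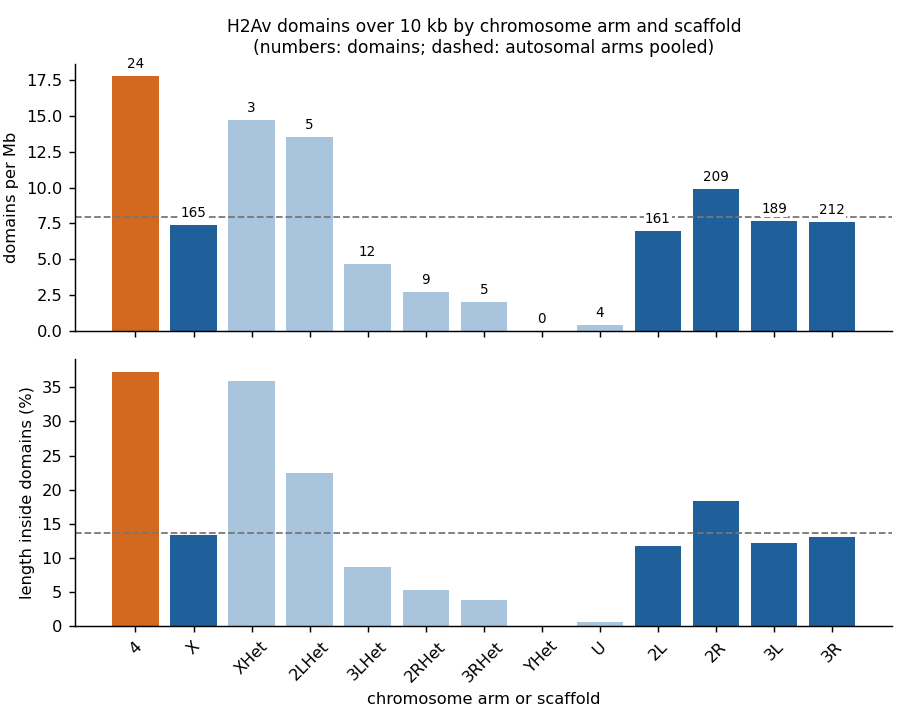
Domains per Mb (upper panel) and share of length inside domains in % (lower panel) for each chromosome arm and scaffold (horizontal axis), in the combined list. Numbers above the upper bars are domains and the dashed lines are the 4 autosomal arms pooled, at 7.98 per Mb and 13.7%. Chromosome 4 is the highest in both panels.

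The 24 domains of chromosome 4 had a median width of 17.5 kb, against 14.9 kb on the autosomal arms. They were closely set, and 20 of the 24 had another domain within 20 kb. Their highest score, 1.82, was that of the domain from 163888 to 204070 (40.2 kb), with piece scores of 2.22 in replicate 1 and 1.44 in replicate 2. The lowest, 0.773, was that of the domain from 24168 to 35028, which was covered to 82.0% and 52.9%. The median score was 1.22 on chromosome 4 and 1.24 on the autosomal arms. In the replicates taken singly the direction differed: the median piece score on chromosome 4 was 0.290 above that of the autosomal arms in replicate 1 and -0.195 from it, that is lower, in replicate 2.

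X domains carried the higher scores. Their median was 1.44, against 1.24 for domains of the autosomal arms, a difference of 0.208. X held 16.5% of all domains but 36 of the 100 with the highest scores. The X median was above the autosomal one in each width class over 10 kb, at 1.36 and 1.19 up to 15 kb, 1.50 and 1.28 up to 20 kb, 1.48 and 1.19 up to 30 kb and 1.49 and 1.39 above it. The median piece score above 30 kb was 1.57 on X and 1.39 on the autosomal arms in replicate 1, but 1.46 on X and 1.50 on the autosomal arms in replicate 2. In the replicate lists the difference of median piece scores was 0.280 in replicate 1 and 0.0465 in the other, averaging 0.163 ± 0.165 (SD, n = 2). The direction was shared, but the difference was no larger than the spread between replicates.

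Replicate 2 covered the domains of X, of chromosome 4 and of the heterochromatic scaffolds less than replicate 1 did. On X, 94.8% of domain length was called in replicate 1 and 86.1% in replicate 2, and 129 of 165 domains were less covered in replicate 2. On chromosome 4 the shares were 96.8% and 86.3%, with 21 of 24 domains less covered in replicate 2, and on the heterochromatic scaffolds 91.5% and 82.9%, with 27 of 34. On the autosomal arms they were 92.6% and 91.7%, with 423 of 771. The lower coverage of X in replicate 2 was not particular to domains. In X clusters over 5 kb and up to 10 kb the median share was 92.8% in replicate 1 and 83.6% in replicate 2. On the autosomal arms the medians of that class were 93.1% and 92.6%. X domains were also in more pieces in replicate 2, with a mean of 2.30, against 1.60 in replicate 1. The excess of X over the autosomal arms in called domain length was 2.17 percentage points in replicate 1 and -5.66 in replicate 2, so its sign rests on the replicate read. Beside these values, the part of depth or input in the gap between the replicates was not tested.

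Domains lay close to each other. The median distance from a domain to the nearest other domain on the same arm or scaffold was 12.7 kb, with quartiles of 2.80 kb and 44.2 kb. Another domain lay within 1 kb for 148 domains (14.8%), within 20 kb for 596 (59.7%) and within 50 kb for 771 (77.3%). To the nearest cluster of any width the median was 717 bp from a domain and 1032 bp from a narrower cluster. From a cluster over 5 kb and up to 10 kb it was 933 bp. Distances to the nearest member of the same class were measured for domains only. Between the large arms the share with a neighbour within 20 kb varied little, from 57.7% on 3L to 62.7% on 2L, and it was 83.3% on chromosome 4.

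Joined across distances up to 20 kb, the 596 domains formed 219 runs, of which 128 had 2 domains, 57 had 3 and 34 had 4 or more, up to 8. The other 402 domains stood alone. Domains in runs had a median width of 15.5 kb and a median score of 1.27, and those alone had 14.4 kb and 1.28. Coverage was also alike, at 94.6 ± 2.63% in runs and 94.5 ± 2.01% alone (mean and SD of the replicate medians, n = 2).

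The longest run lay on 2R from 1281328 to 1528062, a span of 247 kb. Its 7 domains, of 11.3 kb to 99.2 kb, filled 92.4% of the span, and 93.1% of their length was called in replicate 1 and 96.5% in replicate 2. The next was on X from 16615230 to 16850674 (235 kb), with 8 domains over 74.2% of the span. There the replicates differed, with 96.5% of domain length called in replicate 1 and 77.5% in replicate 2. The third, on 3L from 21525380 to 21736496 (211 kb), had 7 domains over 78.5% of the span, called to 95.9% and 94.7%.

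Over the 117 full windows of 1 Mb on the large arms, the median was 7 domains, with quartiles of 5 and 10. The fullest window was 2L from 22000001 to 23000000, with 23 domains over 42.4% of its length, followed by 2R from 1 to 1000000, with 21 over 46.4%. Next came 3L from 23000001 to 24000000 with 17, and 2L from 6000001 to 7000000 and 2R from 1000001 to 2000000 with 16 each. A further window, 3L from 21000001 to 22000000, also had 16. In the 2R window from 1000001 the 16 domains filled 44.5% of the length, against 27.1% for the 16 on 2L, so the 2R domains were wider. The window on 2L from 15000001 to 16000000 had no domain, although it had 31 narrower clusters. Across windows the counts of domains and of narrower clusters had a Spearman rho of 0.46.

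**Figure D5:**
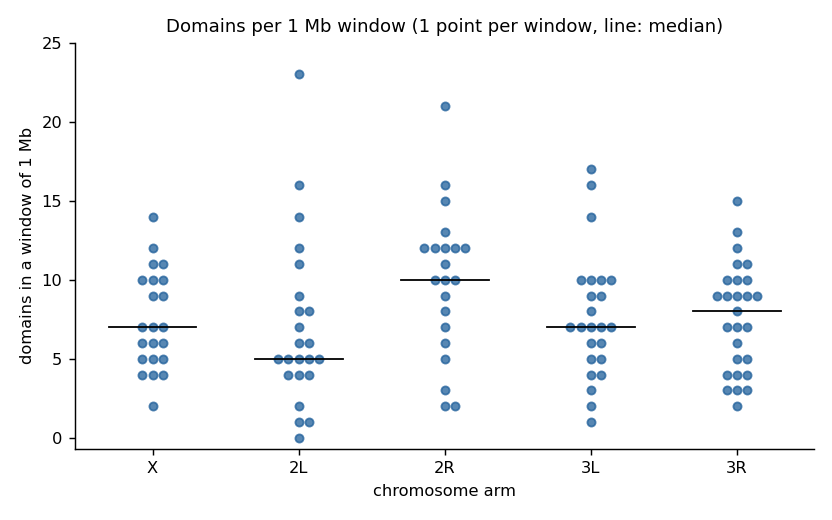
Number of domains (vertical axis) in each full window of 1 Mb (1 point per window) of the large arms (horizontal axis), with the median of the arm as a line. Medians are 7 on X, 5 on 2L, 10 on 2R, 7 on 3L and 8 on 3R, and the fullest windows, on 2L and 2R, have 23 and 21.

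At the centromere end of the assembled arms the number of domains differed. The last 1 Mb had 23 domains on 2L, against 6.27 per Mb in the rest of the arm. On 2R there were 21, against 9.33 per Mb, and on 3L there were 14, against 7.43 per Mb. On 3R there were 11, against 7.47 per Mb. On X there were 5, against 7.47 per Mb, so the direction there was the opposite. Narrower clusters were counted in the full 1 Mb windows at or nearest these ends. They numbered 67 on 2L, 46 on 2R, 103 on 3L, 53 on 3R and 60 on X. Over the whole arms they stood at 43.8, 54.1, 50.9, 49.2 and 50.4 per Mb in that order. Only on 2R was the count of narrower clusters at the end below that of the arm. On 2R the domains at the centromere end were also wider, with a median of 20.7 kb, against 15.1 kb in the rest of the arm. The medians were slightly higher there on 2L, at 15.7 kb against 15.3 kb, and on X, at 15.6 kb against 15.2 kb. On 3L and 3R the domains at the centromere end were narrower, at 12.9 kb against 13.7 kb and at 12.2 kb against 15.7 kb.

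Long stretches separated some domains. The longest on a large arm without a domain was on 2L from 14335535 to 16297965, 1962 kb with 42 narrower clusters. The next were X from 9215535 to 10642959 (1427 kb, 46 narrower clusters) and 2L from 17504165 to 18665303 (1161 kb, 19 narrower clusters). In all, 35 stretches between neighbouring domains of the large arms exceeded 500 kb.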

How the data were processed

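Values came from 3 deposited lists of enriched regions, 1 per ChIP replicate and 1 combined. The submitters' processing notes name Bowtie 0.12.7, and per the file headers the coordinates are those of FlyBase release 5. For the caller, its threshold, the score's scale and the joining of replicates, details were not given in the sources used here. The authors deposited 1 score for each cluster. Other deposited values are coordinates.

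Lists were analysed with pandas 2.3.3, numpy 2.4.6 and scipy 1.17.1 under Python 3.11.15. A piece is a replicate cluster overlapping a domain by at least 1 bp. Functions were tested on simulated lists. Starts in the combined list were all at even bases, against 49.4% and 50.1% in the replicate lists, for a reason that is not known. Members, lists and thresholds were chosen with earlier results of these data known. Regions were named by rank: the 10 widest and the 10 highest in score, the 5 with most pieces, the 5 least covered, the 5 differing most between replicates, the 3 nearest the threshold on either side, the 3 longest runs and the 5 fullest windows. The domains of chromosome 4, the centromere ends and the longest stretches were added after their values were seen. The available gene table is on release 6 and was not used, and no sequence is printed because no genome of release 5 was at hand. Inputs were used only through the calls. Depth is unknown.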

Additional observations from a re-analysis of the deposited data

How the results depend on the processing

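Values are descriptions, and "moved" means by more than the SD of the replicate lists, by over 1.5 times for counts, or by over 0.05 where there is no such SD. Of 76 recomputed values, 47 did not move. Some of these could not move when a replicate was left out. The median coverage and the median number of pieces are means of the 2 single-replicate values, which always lie within their SD. All domains were touched by both replicates, so touching by the remaining replicate was fixed at 100%. A reversal of sign could be recorded only for the score difference and the rank correlations, and none was seen there. Above 15 kb there were 499 domains, 87.0% of their length was called in both replicates, the rho of score and width was 0.0814, chromosome 4 stood at 2.84 times the autosomal arms and 42.1% had a neighbour within 20 kb. Above 8 kb, 99.8% were touched by both replicates, the chromosome 4 ratio was 1.82 and 68.7% had a neighbour. Joining clusters across gaps up to 1 kb gave a median coverage of 90.8%, 78.3% of length in both, a score difference of 0.529, a rho of replicate scores of 0.76, a chromosome 4 ratio of 1.84 and 63.7% with a neighbour. In the upper 50% of each list by score these were 91.6%, 67.8%, 0.188 and 0.62 for the first 4, and 88.4% of domains were touched by both. Requiring 50% of the replicate cluster inside gave 99.5% touched by both. By length the chromosome 4 ratio was 2.73. With distances of 10 kb and 50 kb, 45.4% and 77.3% had a neighbour. In the lists of single replicates there were 650 (without replicate 1) to 749 clusters over 10 kb, the score difference was 0.516 to 0.611, and 46.8% to 49.3% had a neighbour within 20 kb. Single replicates called 90.2% to 93.1% of domain length, against 85.0% in both at once. For these values the cause was not tested, except that calling in both replicates cannot exceed either. The rho of replicate scores has no value without a replicate. No paired analysis was possible because the groups sharing numbers are ChIP and input, and the lists hold no input values. With depth unknown, its bearing on edges and breaks cannot be read here.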

Other observations

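Some broad replicate clusters had no counterpart among the domains. Of the clusters over 10 kb, 15 in replicate 1 and 17 in replicate 2 touched no domain, and all of them touched a narrower cluster of the combined list. The widest was a replicate 1 cluster on 2R from 17972971 to 17992092 (19.1 kb), which met 3 combined clusters, the widest of 9351 bp. The next was a replicate 2 cluster on 3R from 19582034 to 19600720 (18.7 kb), also over 3 combined clusters, with a score of 1.92. Among these 15 and 17 clusters the highest score, 2.49, was that of a replicate 1 cluster on 2R from 708732 to 719054 (10.3 kb), whose combined cluster of 9325 bp fell below the threshold. Conversely, 5 clusters of replicate 1 and 10 of replicate 2 over 10 kb touched 2 or more domains. These regions were looked at after the values of the domains were known.

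In the combined list, 5 pairs of neighbouring clusters shared a base. On chromosome 4 the domain from 599916 to 615372 was closely followed by the domain from 615622 to 633054. Such closeness was not particular to this pair, since 148 domains had another within 1 kb.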
